A study of Symphysodon aequifasciata with 2 samples.

Results

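A set of 10 glial genes was followed in the brain of the discus (labelled Symphysodon aequifasciata), an ornamental cichlid fish: gfap, vim, glul, slc1a2, slc1a3, gja1, s100b, sox2, aldoc and ndrg2. They were chosen by symbol alone, in any case and with or without a final a, b or -like, and every matching row was kept. This gave 16 of the 40209 features in the table, and each of the 10 genes had at least 1 feature. A feature is a transcript cluster with an identifier of the Trinity assembler's form, and it carries a symbol borrowed from other species. The study sequenced poly(A) RNA from brain samples of 1 male and 1 female, both aged 1 year, from 1 breeding laboratory and killed in the anaesthetic MS-222 at 100 mg/L. There was 1 library per sex, which allows no test between the sexes, and p-values are therefore not given. Sex and all that differed between these particular fish and their libraries cannot be told apart. The male library is titled Obrain and the female library Tbrain. The directions below follow the gender label, and they would all turn if those labels were exchanged.

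Radial glia are elongated cells that span the brain wall from the ventricle to the outer surface. In mammals most of them disappear after birth and astrocytes take over support of neurons, whereas in adult teleosts radial glia persist, act as stem cells for new neurons and carry out many tasks of astrocytes. These tasks include clearing the transmitter glutamate from synapses, turning it into glutamine, and sharing ions and metabolites through gap junctions. In whole tissue, fewer cells of a type and less RNA per cell cannot be told apart.

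Levels are in TPM, a measure of relative abundance per length. Single reads left whole steps in the deposited values, from which the table was estimated to rest on 26.9 M reads (M for 1e6) in the male and 24.7 M reads in the female library. Fold intervals below are exact (Clopper-Pearson) 95% intervals from these reads. They cover counting error only and say nothing about the spread between fish. Markers of other cell types were also present. Of 11 neuron markers 9 were matched, with sums of 4059 TPM (male) and 4426 TPM (female) and a median log2 ratio of −0.07. Of these, 4 were higher in the female fish, among them snap25 at 2201 TPM (male) and 2642 TPM (female), and 5 were lower, among them elavl3 at 62.4 and 32.5 TPM. Summed markers of oligodendrocytes (5 of 10 matched), microglia and macrophages (7 of 11), endothelium (5 of 7) and ependymal cells (2 of 6) had female-to-male ratios between 0.881 and 1.51. Genes higher and lower in the female library numbered 3 and 2 for oligodendrocytes and 2 and 5 for microglia and macrophages. They numbered 4 and 1 for endothelium and 2 and 0 for ependymal cells. Of these genes only mpeg1, a microglia and macrophage marker, was past 2-fold, at 2.1 TPM (male) and 7.22 TPM (female). Red blood cell markers were further apart, at 566 TPM (male) and 1260.4 TPM (female) over 3 of 6 matched genes. Alpha globin (hba) made up nearly all of this, at 545 and 1234 TPM. The haem synthesis gene alas2 measured 8.52 and 15.1 TPM, the anion exchanger gene slc4a1 12.3 and 11.3 TPM, and hba1, hbb and hbae were not matched by symbol. The only matched pituitary marker of 7, pomc, measured 10.45 TPM (male) and 38.1 TPM (female). The part of blood and pituitary tissue in the ratios below was not tested.

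Most of the glial features lay within 2-fold in the 2 libraries, as did most features in general. Of the 16 features, 15 lay within 2-fold, and the exception, a short glutamine synthetase feature, was listed at 0 in the male library. This is 6.25% of the features apart by at least 2-fold, where 15.2% of all features were. Unlike the glial ones, most of all features were shorter than 1000 bases, and the shorter ones were more often apart. Among features of at least 1000 bases, 0 of 15 were apart by 2-fold, where 1.38% of all features of that length were. With so low a share, these counts do not set the glial genes apart from other features. On the scale of log2(TPM + 0.5), the ratio of female to male had a median of 0.04 over the 16 features and −0.07 over all features. Summed over its features, each of the 10 genes lay within 2-fold, 5 of them higher in the female and 5 higher in the male library. Of all single features, 43.7% were higher in the female library. Together the 16 features held 2235 TPM (male) and 2164 TPM (female), or 0.238% and 0.229% of the library totals.

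The levels of the genes covered a wide range. In the male library aldoc was the most abundant at 647 TPM over its features, followed by glul at 574, s100b at 297, gfap at 218, slc1a2 at 209.9 and gja1 at 159.8 TPM. A gap separated these from ndrg2 at 42.1, slc1a3 at 33.8, vim at 30.9 and sox2 at 22.6 TPM. The female library kept this order of summed TPM with 1 exchange, since vim at 43.3 TPM stood above slc1a3 at 31.5 TPM. The exchange depends on counting the feature Vim, whose place in vim is uncertain, as given below. The feature VIM alone, at 17.5 TPM (male) and 26.6 TPM (female), stood below both slc1a3 and sox2 in each library. Neighbours as close as gfap and slc1a2 in the male library cannot be ordered for the sexes in general, because no spread between fish was measured. The most abundant single feature, aldocb, ranked 136th in the male and 154th in the female library among all features.

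**Figure D1:**
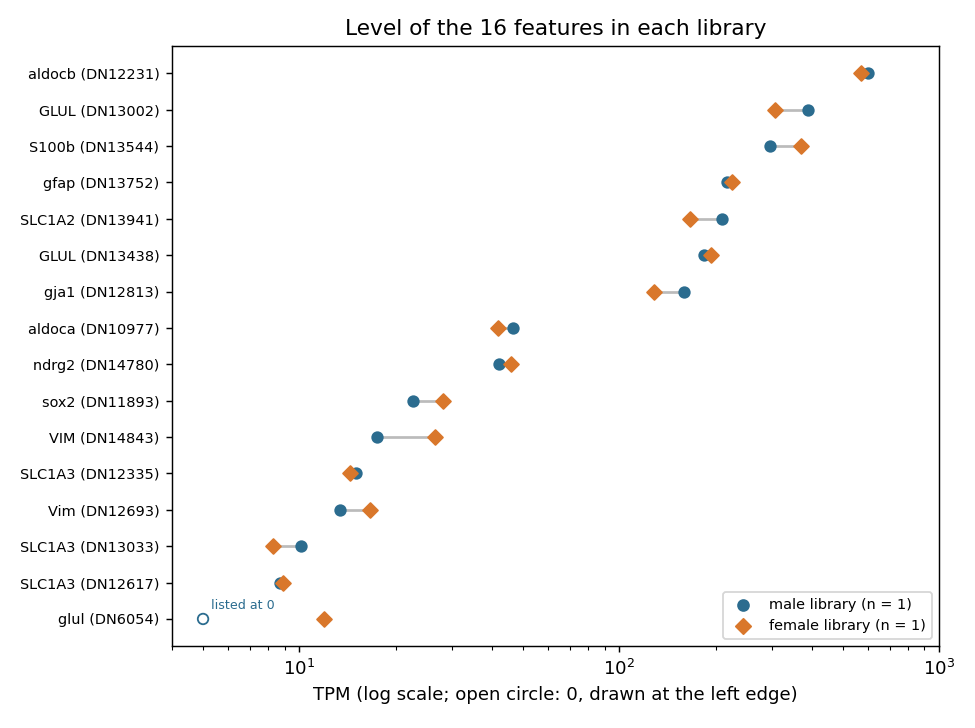
TPM of each of the 16 features (log axis) in the male library (circles) and the female library (diamonds), 1 library each, with the assembly component in brackets. The pairs lie close together over a range from 8.29 to 601 TPM, and the short glul feature is the only one listed at 0, drawn as an open circle at the left edge.

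The intermediate filament genes build the cytoskeleton of glia. The 3 features of gfap and vim were higher in the female library, gfap by little, as were 41.9% of all features of at least 1000 bases. Filament features under other symbols went both ways, as given at the end. Glial fibrillary acidic protein, gfap, is the filament protein by which astrocytes and radial glia are usually recognised. Its feature of 4272 bases (TRINITY_DN13752_c3_g4) measured 218 TPM (male) and 226 TPM (female). The libraries were nearly level for it, with a fold of 1.04 (95% interval 1.02 to 1.05) over 36125 and 34616 reads.

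Vimentin, vim, is the filament protein of immature glia and of many non-neural cells, including vessel walls. The feature VIM (TRINITY_DN14843_c0_g1, 1781 bases) measured 17.5 TPM (male) and 26.6 TPM (female), which gave the largest ratio among the 15 long features. Its fold was 1.52 (95% interval 1.40 to 1.64) over 1100 and 1540 reads. On the log2 scale this was 0.59, above the central 90% of the 10726 features of at least 1000 bases, which ran from −0.61 to 0.40. Of those features, 1.80% had a higher ratio. It was the only one of the 15 outside that range. The endothelial markers, which belong to another vimentin-bearing tissue, summed to 74.5 TPM (male) and 83.4 TPM (female), while the 2 matched ependymal markers, foxj1 and ccdc39, measured 12.1 and 18.4 TPM and 4.51 and 6.76 TPM. The part of these cells in the VIM ratio was not tested.

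A second feature, Vim (TRINITY_DN12693_c1_g11, 1021 bases), measured 13.4 TPM (male) and 16.7 TPM (female). Its fold was 1.25 (95% interval 1.09 to 1.42), and it rested on the fewest reads of the long features, 420 and 481. The symbol comes from rat vimentin, while the closest fish protein is named as a glial fibrillary acidic protein-like, so whether it belongs to vim or to gfap is uncertain. Within each library, gfap stood at 12.4 times the level of VIM in the male and 8.50 times in the female. How many other feature pairs differ as much between the libraries was not measured.

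The glutamate transporters remove glutamate from the synaptic cleft. The main carrier of mammalian astrocytes, SLC1A2 (also called EAAT2 or GLT-1; TRINITY_DN13941_c2_g4, 2033 bases), measured 209.9 TPM (male) and 166 TPM (female). It was 1.26-fold higher in the male library (95% interval 1.23 to 1.29), a log2 ratio of −0.34 that lay inside the central 90% of features of that length. Its relative SLC1A3 (EAAT1 or GLAST), the transporter typical of radial glia in mammals, had 3 features on separate components. The first of them (TRINITY_DN12335_c5_g4, 2660 bases) measured 14.99 TPM (male) and 14.35 TPM (female), and its interval held 1 (0.89 to 1.03), with a log2 ratio of −0.06 that turned to 0.01 when ratios were centred on the median of all features.

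Of the other SLC1A3 features, only 1 had an interval that left out 1. The feature TRINITY_DN13033_c1_g12 (2277 bases) measured 10.1 TPM (male) and 8.29 TPM (female), 1.22-fold higher in the male (95% interval 1.10 to 1.35). The feature TRINITY_DN12617_c2_g1 (2583 bases) measured 8.71 TPM (male) and 8.89 TPM (female), and its interval held 1 (0.92 to 1.13). Summed, SLC1A3 reached 33.8 and 31.5 TPM, so SLC1A2 stood at 6.20 times SLC1A3 in the male and 5.27 times in the female library.

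Glutamine synthetase, glul, converts the glutamate taken up by glia into glutamine, which neurons use again. All 3 of its features matched glutamine synthetase proteins. Reads shared between near-identical copies could be split among them by the quantification, so the values of single copies are less certain than their sum. The more abundant copy, GLUL TRINITY_DN13002_c1_g9 (2058 bases), measured 389.9 TPM (male) and 307 TPM (female). It was 1.27-fold higher in the male library (95% interval 1.25 to 1.29), the largest ratio in that direction among the 15 long features. The copy TRINITY_DN13438_c3_g2 (1953 bases) went the other way, at 184 TPM (male) and 194 TPM (female), a fold of 1.05 (95% interval 1.03 to 1.08).

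The ratio of one long glul copy to the other differed between these libraries, and it does not depend on how each library was scaled. Each copy's own female-to-male ratio lay inside the central 90% of features of its length. The share of other feature pairs that differ as much was not measured, and the part of shared reads in the difference was not tested. The first copy stood at 2.11 times the second in the male and 1.59 times in the female library. Its share of all glul TPM was 67.9% (male) and 59.9% (female). Over the 3 features, glul summed to 574 TPM (male) and 513 TPM (female), a log2 ratio of −0.16.

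The third feature, glul TRINITY_DN6054_c0_g1, was only 390 bases long and was listed at 0 in the male and at 11.9 TPM in the female library. At this length 1 read was worth 0.188 TPM (male) and 0.209 TPM (female), so the female value rests on 57 reads. A count of 0 allows up to 3 reads, or 0.563 TPM, in the male library, and the female value is 21.1 times that limit. With the counting error of the 57 female reads included, the exact 95% interval of the fold begins at 16.6. Among the 11475 features of 300 to 500 bases, 7 others were likewise listed at 0 in the male library and at 11.9 TPM or more in the female library, and 2 showed the reverse. All of these are in the table only through the library where they are high, since every listed feature reached 6.01 TPM in at least 1 library. In this length class, 5.59% of all features reached a 2-fold higher level in the female fish. The feature made up 2.32% of the glul total of the female library. Its closest protein match is glutamine synthetase of the killifish Fundulus heteroclitus, whereas the 2 long copies matched a tilapia and a damselfish.

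**Figure D2:**
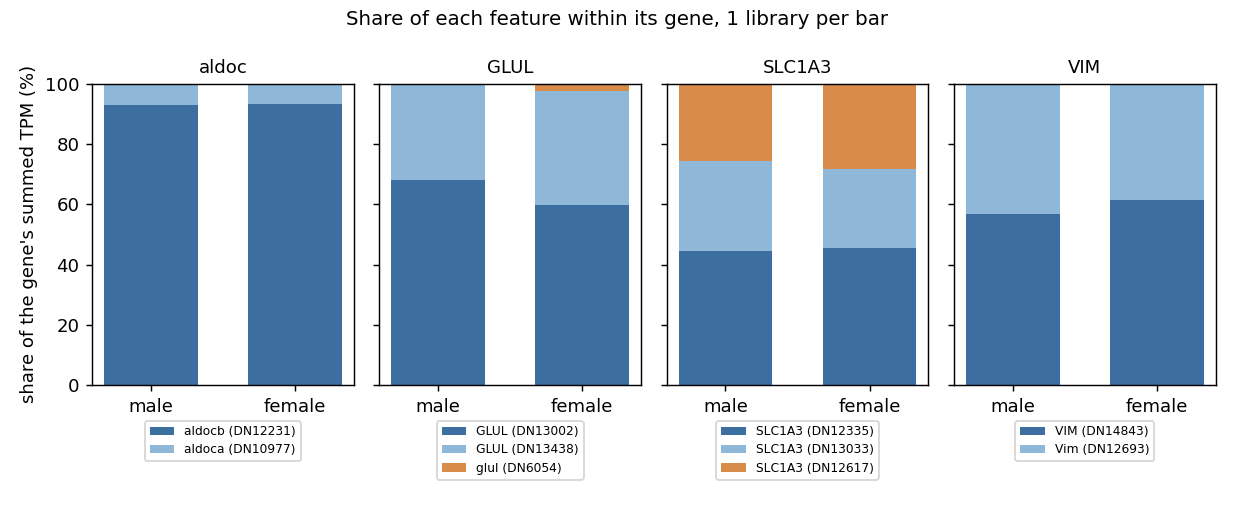
Share of each feature in the summed TPM of its gene (%), for the 4 genes with more than 1 feature, with 1 bar per library. The larger GLUL copy takes 67.9% (male) and 59.9% (female), while aldocb takes 92.8% and 93.2% of aldoc.

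The gap junction and calcium-binding genes pointed in opposite directions. Connexin 43, gja1, forms the channels that couple astrocytes to one another. Its feature (TRINITY_DN12813_c0_g14, 2424 bases) measured 159.8 TPM (male) and 129 TPM (female). It was 1.24-fold higher in the male library (95% interval 1.21 to 1.28).

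The calcium-binding protein gene S100b, a marker of mature astrocytes in mammals, measured 297 TPM (male) and 369 TPM (female) (TRINITY_DN13544_c2_g17, 3605 bases). It was 1.24-fold higher in the female library (95% interval 1.23 to 1.26) over 41028 and 47207 reads, the most of any of the 16 features. Its closest fish protein is named S100-B-like, but its KEGG entry is that of S100-A9, so its place within the S100 family is uncertain. Within each library, S100b stood at 1.86 times gja1 in the male and 2.87 times in the female. This unplanned pair joins features with opposite female-to-male ratios, each inside the central 90% of features of its length. The share of other feature pairs that differ as much was not measured.

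The transcription factor sox2 keeps neural stem cells in an undifferentiated state and is expressed by radial glia in the adult fish brain. It measured 22.6 TPM (male) and 28.1 TPM (female) (TRINITY_DN11893_c4_g3, 1982 bases). Its fold was 1.24 (95% interval 1.16 to 1.33), and of the features of at least 1000 bases 8.95% had a higher ratio.

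The genes aldoc and ndrg2 were nearly level. Aldolase C, aldoc, is the glycolytic aldolase of the brain, found in astrocytes and Purkinje neurons of mammals, and its presence in neurons means that its level is not a measure of glia alone. The copy aldocb (TRINITY_DN12231_c6_g2, 1878 bases) measured 601 TPM (male) and 570.5 TPM (female), 1.05-fold higher in the male (95% interval 1.04 to 1.07), a log2 ratio of −0.07 equal to the median of all features. The copy aldoca (TRINITY_DN10977_c0_g1, 1707 bases) measured 46.4 and 41.7 TPM, 1.11-fold higher in the male library (95% interval 1.05 to 1.18). The ratio of aldocb to aldoca was 12.9 (male) and 13.7 (female). The gene ndrg2, whose protein marks astrocytes in mammals, measured 42.1 TPM (male) and 45.8 TPM (female) (TRINITY_DN14780_c0_g1, 1926 bases), a fold of 1.09 (95% interval 1.03 to 1.15).

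Of the 15 long features, 7 were higher in the female and 6 higher in the male library with an interval that left out 1, and 2, both of SLC1A3, had intervals that held it. Among all features of at least 1000 bases, the interval left out 1 in 23.9% towards the female and in 38.5% towards the male fish. These shares are not at like depth, since more reads give narrower intervals. Of the 15 glial features 7 were at 100 TPM or more, against 325 of all 10726 features of that length. Against the spread of other features, 14 of the 15 lay inside the central 90% of features of their length. Of the features of at least 1000 bases with 100 TPM or more, 325 in all, the central 90% ran from −0.47 to 0.47. The 7 glial features at that level, aldocb, both long GLUL copies, S100b, gfap, SLC1A2 and gja1, were all inside that range. Of all features of at least 1000 bases, 15.2% had a lower ratio than the more abundant GLUL copy and 8.46% a higher ratio than S100b. Whether these ratios would recur in other fish cannot be told from 1 library per sex.

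**Figure D3:**
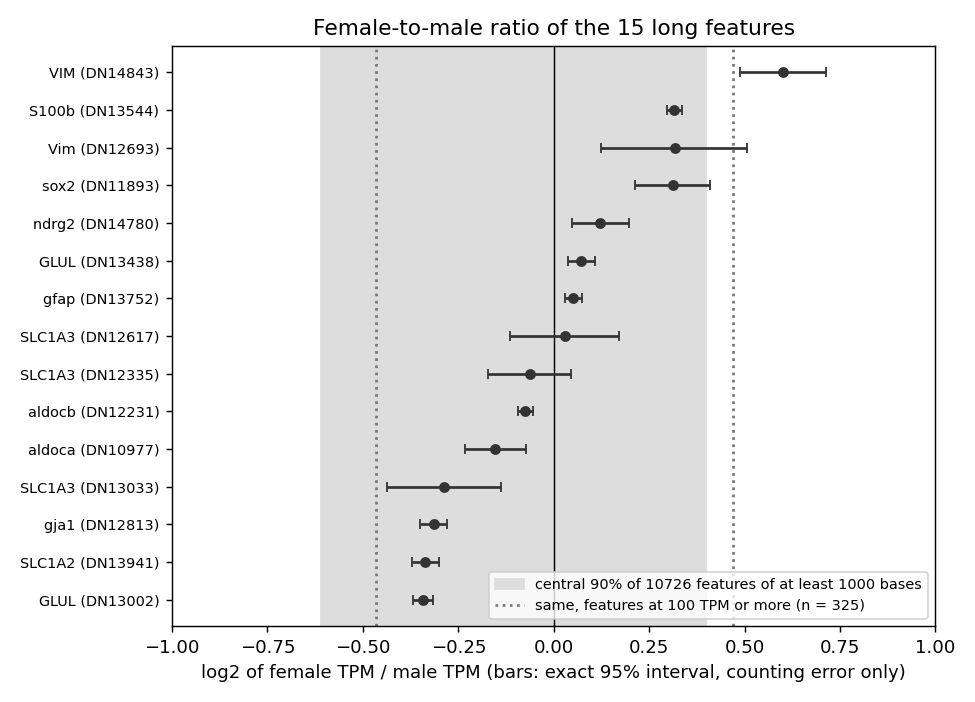
Log2 of female over male TPM for the 15 features of at least 1000 bases, with bars for the exact 95% interval of counting error. The grey band (−0.61 to 0.40) and the dotted lines (−0.47 to 0.47) hold the central 90% of 10726 features of at least 1000 bases and of the 325 among them at 100 TPM or more, on the log2(TPM + 0.5) scale; only VIM lies outside the band.

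Other genes of radial glia and astrocytes went both ways as well. Of 32 genes in a list of further glial genes 23 were matched, all within 2-fold, 12 of them with the higher value in the female fish and 11 with the lower, and their median log2 ratio was 0.01. After centring on the median of all features the split was 13 and 10. On the female side stood id1, an inhibitor of differentiation active in neural stem cells, at 79.8 TPM (male) and 153 TPM (female), and the glial transcription factor sox9 at 7.47 and 13.2 TPM. The brain fatty acid-binding protein gene fabp7, a radial glia marker and the most abundant gene of the list, summed to 2059.7 TPM (male) and 2809 TPM (female). Its 2 features went opposite ways, TRINITY_DN14710_c3_g5 at 1652 and 2443 TPM and TRINITY_DN14357_c0_g6 at 408 and 366.5 TPM.

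On the male side of the same list, the aromatase gene cyp19a1 measured 8.69 TPM (male) and 4.97 TPM (female). Its brain form is expressed in radial glia of fish, but the protein match, named only aromatase, does not show which form this feature is. The inward rectifier potassium channel gene kcnj10 takes up potassium around active neurons. It summed to 292 TPM (male) and 183 TPM (female) over 3 features. Most of this difference came from the shorter features, with log2 ratios of −0.77 (503 bases, matched to a hypothetical protein) and −0.56 (763 bases). The longest kcnj10 feature (4433 bases) was nearly level at 14.6 TPM (male) and 13.5 TPM (female), a log2 ratio of −0.11. Clusterin (clu), a secreted chaperone of astrocytes, was nearly level at 265 and 283 TPM.

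Summed per gene, the enzymes and transporters around glutamate and glutamine were within 2-fold too. Of 24 listed, 15 were matched, 4 of them with the higher value in the female fish and 11 with the lower, and their median log2 ratio was −0.10. After centring on the median of all features the split was 7 and 8. The only single features past 2-fold were short ones, of slc38a4 (357 bases, 3.18 TPM male and 9 TPM female) and got1 (442 bases). Both were higher in the female library, as were 5.59% of all features of 300 to 500 bases by that fold. The largest ratios towards the male library were those of the neuronal glutamate transporter slc1a1, at 25.8 and 19.9 TPM in the male and female libraries, and of slc38a3, a glutamine carrier of astrocytes, at 52.4 and 41.1 TPM. Towards the female library the largest were got1, a cytosolic aspartate aminotransferase, at 74.9 and 85.8 TPM, and the asparagine synthetase asns, at 22.7 and 23.99 TPM. The longest got1 feature (2309 bases) was nearly level at 67.8 and 71.1 TPM. Much of the summed got1 difference came from short, low features, at 3.58 and 6.81 TPM (513 bases) and 3.51 and 7.91 TPM (442 bases). The longer asns feature (1229 bases) was level at 10.99 and 10.98 TPM. The summed asns difference came from the shorter one (629 bases), at 11.71 and 13.01 TPM. The most abundant were gad1, which makes GABA, at 103 and 106 TPM, got2, the mitochondrial aminotransferase, at 93.9 and 81.1 TPM, and gls, the glutaminase that turns glutamine back into glutamate, at 89.3 and 88.0 TPM.

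**Figure D4:**
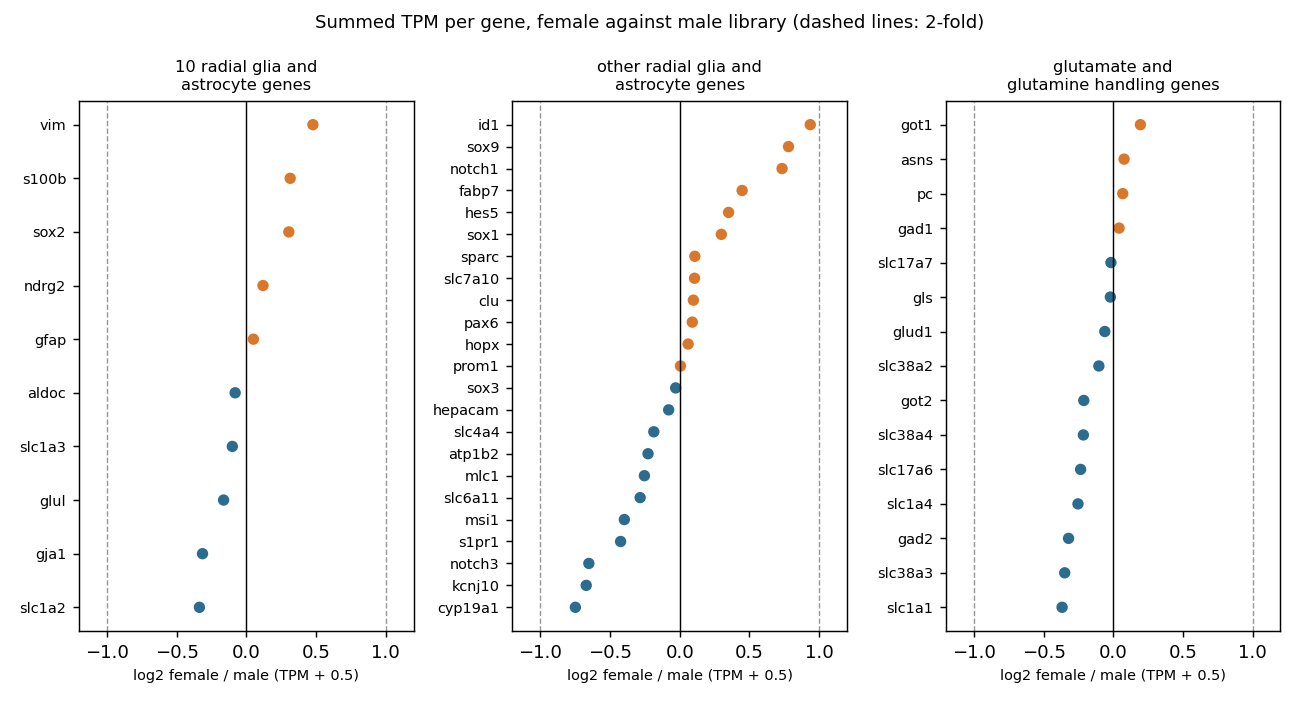
Log2 ratio of female over male on the scale of log2(TPM + 0.5), with TPM summed per gene, for the 10 glial genes (left), 23 further glial genes (middle) and 15 genes of glutamate and glutamine handling (right). Every gene lies between the dashed 2-fold lines, and the first panel runs from −0.34 for slc1a2 to 0.48 for vim, summed over VIM and the uncertain Vim.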

How the data were processed

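The deposited values are TPM per feature, 1 column per library, matched to the libraries by title. Salmon, edgeR, cutadapt and FastQC are listed, with no role stated, in the submitters' processing notes. The genome build is not given in the sources used here. Library preparation did not mark strand, per the labels' protocols naming the kit, so overlapping genes on opposite strands are not separated. The lowest value of the higher library was 6.01 TPM, so a minimum of 1 TPM removed 0 features. The deposited table therefore holds no feature below 6.01 TPM in both libraries. A feature under that level in 1 library is listed only through its value in the other. This selection bears on the folds of such low features, and its part in them was not tested.

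The ratio is log2((female TPM + 0.5) / (male TPM + 0.5)), while folds are ratios of TPM. Gene values are sums over features. Reads were recovered from the TPM steps: for features of 201 to 480 bases the step was searched per length, and above that reads equal TPM × 0.0414 × (length − 264) in the male and TPM × 0.0383 × (length − 268) in the female library, fitted on features of 600 to 1000 bases and extrapolated to longer ones. With these, 96.1% and 95.9% of values under 30 reads in the shorter class, and 88.2% and 86.8% of those under 150 reads in the longer class, lay within 0.1 of a whole number, against 20% by chance. Of the 16 features 7 sum several transcripts, so their reads are approximate. Duplicate reads would make the intervals too narrow.

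All features of the 10 genes are named. From each further list the 2 largest ratios per direction and the 3 most abundant genes are named. Members and lists were chosen with earlier results of these data known. Procedures were tested on simulated data. Computations used pandas 2.3.3, Matplotlib 3.10.9, SciPy 1.17.1 and NumPy 2.4.6 under Python 3.11.15.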

Additional observations from a re-analysis of the deposited data

How the results depend on the processing

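No paired analysis was possible because there was 1 library per sex, and no library could be left out. The alternatives were pseudocounts of 0.1 and 1 TPM, centring on the median of all features, a minimum of 10 TPM, a minimum of 1000 bases and, for genes, the feature with the highest mean. Centring on features of at least 1000 bases and a minimum of 500 bases were added after the data were examined. The median ratio of the 16 features stayed between 0.03 and 0.11. With features of at least 1000 bases, 0 members were apart by 2-fold, because the short glul feature is left out, and the median of the further glial genes was −0.11. After centring on all features, 1 of those genes, id1, passed 2-fold. Taking each member gene by its feature with the highest mean moved the log2 ratio of glul from −0.16 to −0.34. It moved that of vim from 0.48 to 0.59, while the other member genes moved less. The sign changed in 1 member feature, as given above. Depth limits the short glul feature, the SLC1A3 features and Vim most, and the missing spread between fish limits every ratio.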

Other observations

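Features whose protein match belongs to a family of the 10 genes, but whose symbol is another or missing, numbered 20. They were collected by words in the protein name after the values were seen. In the S100 family, small calcium-binding proteins, 6 of 8 features were higher in the female library, where 43.7% of all features were, and 0 were apart by 2-fold, where 15.2% of all features were. They summed to 196 TPM (male) and 224 TPM (female), with log2 ratios from −0.18 to 0.57. The NDRG relatives of ndrg2 were more abundant than ndrg2 itself, at 642 TPM (male) and 704 TPM (female) over 5 features, led by Ndrg3 at 249.7 and 260.2 TPM and Ndrg4 at 213 and 259 TPM.

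A feature of 807 bases named INA, whose protein match is again a glial fibrillary acidic protein-like, measured 5.96 TPM (male) and 8.14 TPM (female). It shares the identifier stem TRINITY_DN12693_c1 with Vim, and so do features of unrelated genes such as CLIP1 and EIF2S1, so the stem does not show that they are 1 gene. Another INA feature (2353 bases), matched to alpha-internexin, went the other way at 15.5 TPM (male) and 10.8 TPM (female). The feature Nefm (1861 bases), matched to an alpha-internexin-like protein, measured 5.33 and 6.25 TPM. A nestin-like feature of 347 bases measured 9.36 and 2.69 TPM over 35 and 9 reads. An alpha-internexin-like feature of 292 bases measured 5.62 and 17.8 TPM over 12 and 34 reads. The nestin-like feature and this one were the only ones of the 20 apart by 2-fold, or 10%, where 15.2% of all features were.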
